A study of Mus musculus with 2 samples.

Results

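Npy nuclei of the dynorphin lineage were described here: inhibitory nuclei in which a transcript of neuropeptide Y (Npy) was counted. A nucleus was inhibitory when it held at least 2 UMIs (counted molecules) of Gad1, Gad2, Slc32a1 and Slc6a5 together, the genes of GABA and glycine synthesis and transport, and none of Slc17a6, the vesicular glutamate transporter of excitatory neurons. The Npy nuclei were chosen by their counts of these genes and of 6 others: they had at least 1 Npy UMI, no Pdyn UMI, fewer than 2 UMIs each of Gal, Tac2 and Cartpt, and fewer than 20 of Alk. They numbered 208 of 7610 nuclei in all, 93 of 3547 in the injured library and 115 of 4063 in the naive library. They were set against the other 3874 inhibitory nuclei (1832 injured, 2042 naive). A second, closer set of 2114 nuclei (1024 injured, 1090 naive) met every condition but held no Npy UMI, and is called the Npy-negative candidates.

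Both libraries came from adult Pdyn-IRES-Cre(+/-); R26-LSL-Sun1.eGFP(+/-) mice of either sex, in which Cre made under the prodynorphin gene switches on a green fluorescent protein of the nuclear envelope. The injured library pooled 8 mice whose left plantar hindpaw had been incised at postnatal day 3, and the naive library pooled 8 littermates given isoflurane alone on that day. Nuclei of dorsal cord at L3-L5 were sorted on the green signal in both groups. Cre labels any cell that made Pdyn at some time in life, so a labelled adult nucleus need not transcribe Pdyn. With 1 pooled library per group no difference has a replicate check, and every interval below (95%) covers counting error only, not the spread between mice or between nuclei.

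Neuropeptide Y is a peptide transmitter of a subset of inhibitory interneurons in the superficial dorsal horn. It acts through G-protein-coupled receptors encoded by Npy1r, Npy2r and Npy5r, which lower excitability or transmitter release. In mice, spinal NPY neurons are known for restraining mechanical itch and for a part in pain, and many of them release GABA.

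The injured library held 32934588 UMIs and the naive library 30602222. The median depth of Npy nuclei was 9401 UMIs in the injured and 7457 in the naive library, above that of other inhibitory nuclei in both (8211.5 and 6905). Xist and Y-linked UMIs occurred together, which in a pool of both sexes can mark mixed droplets, in 14 of 93 injured Npy nuclei and 5 of 115 naive ones. Among other inhibitory nuclei the share was 5.35% and 4.65%. Doublets were not removed, and 3 cell barcodes occurred in both libraries.

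Npy (ENSMUSG00000029819, mm10 chromosome 6, 49822710 to 49829507, plus strand) was sparse even in the nuclei it defined. Of the Npy nuclei, 69 of 93 in the injured library (74.2%) and 94 of 115 in the naive library (81.7%) held exactly 1 Npy UMI, and no nucleus held more than 5. These nuclei carried 131 of the 306 Npy UMIs of the injured library (42.8%) and 149 of 331 in the naive library (45.0%). A further 62 injured and 75 naive inhibitory nuclei held Npy together with Pdyn, or with Gal, Tac2, Cartpt or Alk at or past the limits above, and inhibitory nuclei with Pdyn had an Npy UMI in 9.54% and 8.49% of cases. Just below the inhibitory limit, 32 injured and 47 naive nuclei had an Npy UMI but fewer than 2 inhibitory UMIs and no Slc17a6.

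Free RNA in droplets bears on so sparse a gene. Excitatory nuclei, taken here as those with at least 3 Slc17a6 UMIs and no inhibitory UMI, had an Npy UMI in 0.660% of injured and 2.61% of naive nuclei, at median depths of 11275 and 9385.5 UMIs. The share over all inhibitory nuclei was 8.05% in the injured and 8.81% in the naive library. How far free RNA contributes to the nuclei with a single Npy UMI was not tested.

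Npy nuclei were 4.83% of inhibitory nuclei in the injured library (3.92 to 5.89) and 5.33% in the naive library (4.42 to 6.37). The intervals overlapped. With every nucleus thinned to 3000 UMIs before the rule was applied, the shares were 3.25% and 3.65%. Nuclei with Xist and no Y-linked UMI, which come from female mice, gave 4.75% in the injured and 6.13% in the naive library. Those with Y-linked and no Xist UMIs gave 3.70% and 3.53%, so the order of the libraries was not the same in both.

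The genes of the rule describe the nuclei and carry no test. Gad2 stood at 230.2 CPM (the summed UMIs of a class scaled to 1000000) in Npy nuclei and 189.1 CPM in other inhibitory nuclei of the injured library, and at 250.4 against 188.7 CPM in the naive library. Gad1 was at 115 against 129 CPM in the injured and 142 against 161 CPM in the naive library. Slc32a1, the vesicular transporter of GABA and glycine, was at 63.9 against 60.1 CPM and at 86.7 against 88 CPM in the same order. The rule counted these genes in both kinds of nuclei, so their levels describe the choice and are no check of the label. Slc6a5, the glycine transporter of glycinergic terminals, was found in 75.3% of injured and 66.1% of naive Npy nuclei, against 57.6% and 54.3% of other inhibitory nuclei. Its levels were closer, with ratios of 1.24 (1.05 to 1.44) in the injured and 1.08 (0.903 to 1.28) in the naive library. Against the Npy-negative candidates the ratios were 1.12 and 0.882.

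Beyond the rule, the leading genes of Npy nuclei were headed by Ntn1, a secreted netrin that guides axons, and Ecel1, a metalloprotease of neurons. The leading genes were chosen as high in both libraries, so their presence in both is no check. Developmental transcription factors (Lhx1, Zfhx3, Zfhx4) stood among them, with adhesion genes (Cdh23, Igsf11, Cntnap5a) and receptors or ligands (Lpar1, Ptpro, Angpt1). Of 10815 genes measured, meaning at least 200 UMIs in inhibitory nuclei and a UMI in at least 5% of 1 kind of nuclei in each library, 2.52% were at least 1.5-fold higher in Npy nuclei in both libraries (272 genes) and 3.81% at least 1.5-fold lower (412 genes). In the injured library by itself 6.4% were higher and 10.8% lower, and in the naive library 6.74% and 9.5%. Against the Npy-negative candidates, 210 genes (1.94%) were higher in both and 374 (3.46%) lower in both. The median annotated span was 107 kb for the 272 higher genes and 51.5 kb for the 412 lower ones (265 and 399 matched to the annotation). Over all measured genes it was 31.9 kb. The part of gene length in these ratios was not tested.

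Ntn1 (chromosome 11, 68209364 to 68400823, minus strand) was at 37.5 CPM in Npy nuclei and 4.95 CPM in other inhibitory nuclei of the injured library, a ratio of 7.58 (4.996 to 11.3). In the naive library it was at 39.6 against 4.32 CPM, a ratio of 9.16 (5.96 to 13.9). Ntn1 was seen in 21.5% of injured and 22.6% of naive Npy nuclei, against 3.11% and 2.20% of other inhibitory nuclei. It was thus several-fold higher but, at this depth, counted in a minority of Npy nuclei, with 37 UMIs in each library. Against the Npy-negative candidates its ratios were 5.39 and 7.83.

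Ecel1 (chromosome 1, 87147655 to 87156521, minus strand) was at 65.9 CPM in Npy nuclei and 13.2 CPM in other inhibitory nuclei of the injured library, a ratio of 5.01 (3.74 to 6.63). In the naive library it was at 79.2 against 9.95 CPM, a ratio of 7.96 (5.94 to 10.6). It was found in 39.8% of injured and 30.4% of naive Npy nuclei, against 7.21% and 5.24% of the other inhibitory nuclei.

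The paired homeobox zinc-finger factors stood high together. Zfhx3 (chromosome 8, 107942644 to 108961630) was at 211 CPM in Npy nuclei against 51.7 CPM in other inhibitory nuclei of the injured library, and at 202.2 against 38.0 CPM in the naive library. Zfhx4 (chromosome 3, 5218526 to 5415857) was at 363 against 96.8 CPM and at 351 against 74.9 CPM. Zfhx4 was counted in 77.4% of injured and 66.1% of naive Npy nuclei, against 32.5% and 24.9% of the others, so here most Npy nuclei carried the transcript. Lhx1, a LIM homeodomain factor, had ratios of 3.69 (2.38 to 5.55) in the injured and 5.86 (3.81 to 8.81) in the naive library, from 29 and 33 UMIs.

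**Figure D1:**
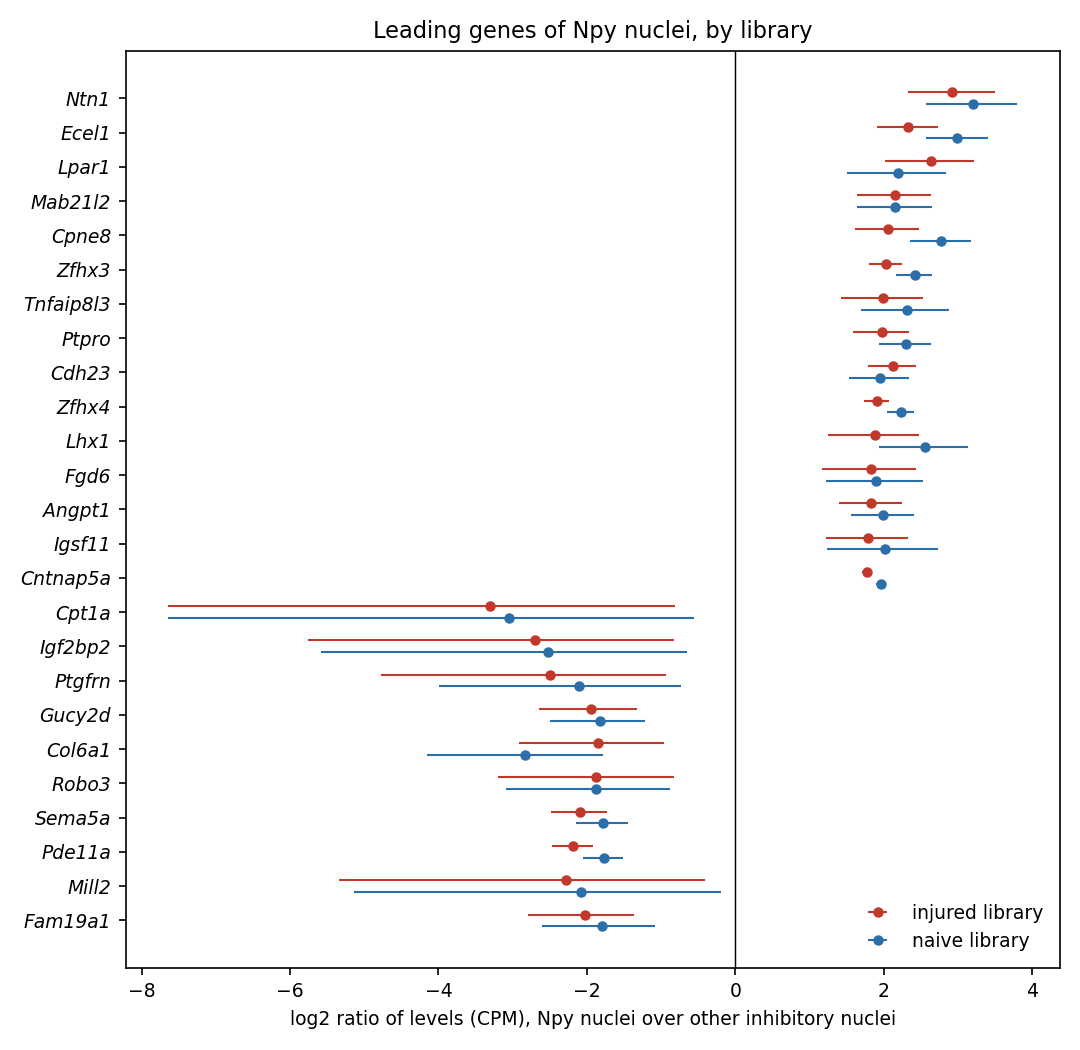
The log2 ratio of the level (CPM) in Npy nuclei over that in other inhibitory nuclei is plotted for the 15 highest and 10 lowest named genes, in the injured and the naive library, with 95% intervals for counting error. The genes were chosen as the extremes of this ratio, and the intervals are widest for the lower genes that rest on few UMIs, such as Cpt1a with 1 UMI in Npy nuclei of each library.

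Cntnap5a, a contactin-associated adhesion protein of the neurexin superfamily, was counted in 87.1% of injured and 80.0% of naive Npy nuclei. Its level was 2421 CPM in Npy nuclei against 708 CPM in others of the injured library, a ratio of 3.42 (3.27 to 3.57), and 2304 against 594 CPM in the naive library, a ratio of 3.88 (3.70 to 4.07). Lpar1, a receptor for lysophosphatidic acid, had ratios of 6.21 and 4.57, and Igsf11, an immunoglobulin-superfamily adhesion gene, 3.46 and 4.04. Lpar1 is also known from oligodendrocytes, whose myelin gene Mbp was at 81.1 CPM in injured and 47.1 CPM in naive Npy nuclei, against 67.6 and 45.7 CPM in the other inhibitory nuclei. The part of such RNA in the Lpar1 ratios was not tested. The marker list of oligodendrocyte precursors summed to 802 CPM in injured and 738 CPM in naive Npy nuclei, against 389.6 and 300.2 CPM in other inhibitory nuclei. Lhfpl3 held 786 of the 791 injured and 686 of the 690 naive UMIs of that list. Its defining markers Pdgfra and Cspg4 had 1 UMI and 0 UMIs in injured Npy nuclei and none in naive ones.

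The remaining leading genes lay between 3.54-fold and 6.83-fold higher in each library. Mab21l2, a developmental gene, had ratios of 4.43 in the injured and 4.45 in the naive library. Cpne8, a calcium-dependent phospholipid-binding copine, had 4.14 and 6.83. Ptpro, a receptor-type tyrosine phosphatase, had 3.92 and 4.91, and Cdh23, an atypical cadherin known from the tip links of hair cells, had 4.34 and 3.86. Angpt1, a secreted ligand of the Tie2 receptor, had 3.56 and 3.97. Tnfaip8l3, a phosphoinositide transfer protein, had 3.98 and 4.95, and Fgd6, an exchange factor for Cdc42, had 3.54 and 3.73.

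Several of these genes were not restricted to Npy nuclei once excitatory nuclei were considered. Cpne8 was at 57.8 CPM in injured and 76.0 CPM in naive Npy nuclei, against 73.2 and 85.7 CPM in excitatory nuclei. Cdh23 was at 101 and 69.5 CPM in Npy nuclei, against 119 and 116 CPM in excitatory nuclei. Ntn1 and Ecel1 were low there: Ntn1 was at 2.46 CPM in injured and 1.46 CPM in naive excitatory nuclei, and Ecel1 at 6.01 and 5.13 CPM. Inhibitory nuclei with Gal and no Pdyn lay lower still for Ntn1 in the injured library, at 1.19 CPM, and at 2.81 CPM in the naive library. Ecel1 was at 65.9 CPM in injured and 79.2 CPM in naive Npy nuclei against 71.5 and 42.01 CPM in inhibitory nuclei with Npy outside the rule. Tnfaip8l3 was at 36.5 and 35.3 CPM in Npy nuclei, against 18.7 and 34.2 CPM in those nuclei. Ntn1 was at 37.5 and 39.6 CPM in Npy nuclei, against 8.51 and 18.7 CPM.

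**Figure D2:**
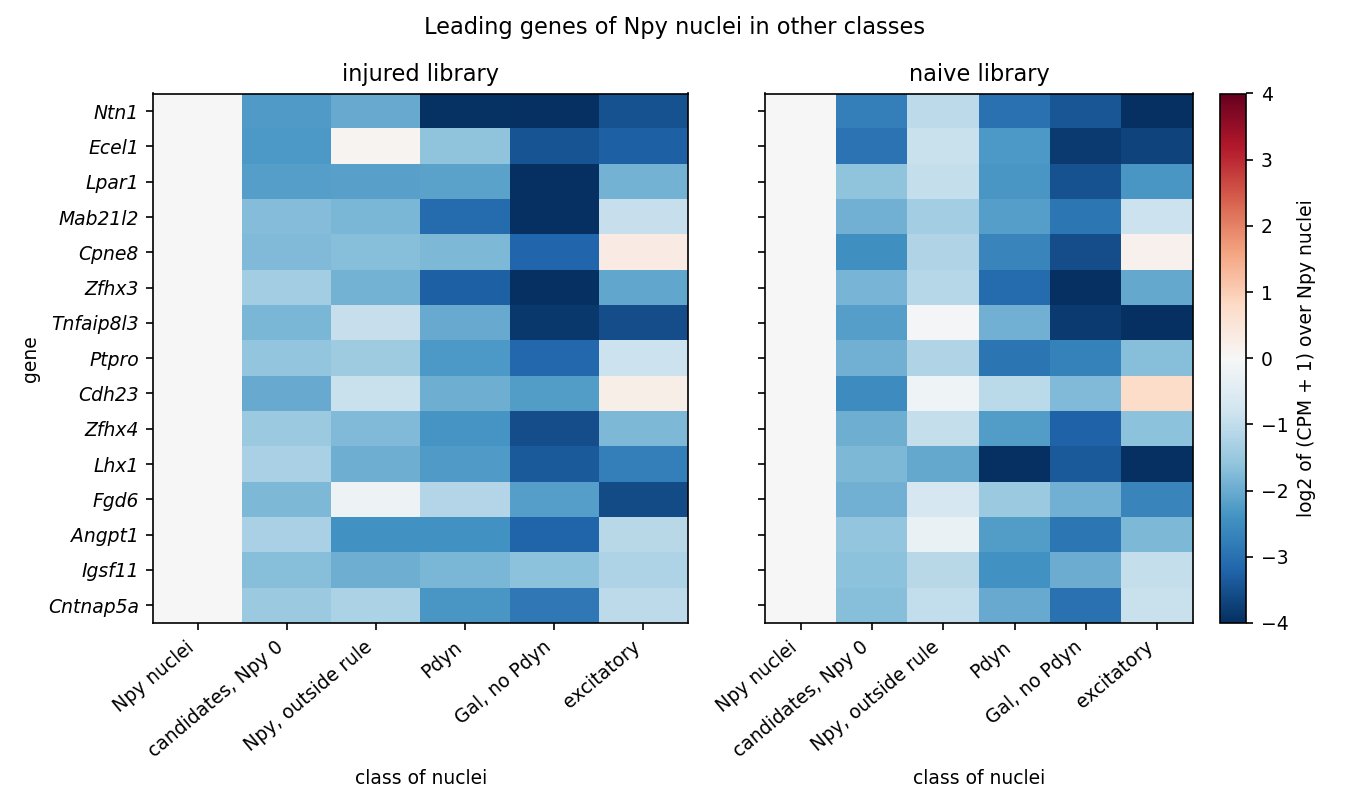
Colour shows the log2 of (CPM + 1) in each class of nuclei over that in Npy nuclei, for the 15 highest genes in the injured and the naive library, with classes along the horizontal axis. The columns for inhibitory nuclei with Gal and no Pdyn are blue throughout in both libraries, while Cpne8 and Cdh23 are at or above the level of Npy nuclei in the excitatory column.

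Genes lower in Npy nuclei included several expressed broadly by other inhibitory nuclei. Pde11a, a cyclic nucleotide phosphodiesterase, was at 114 CPM in Npy nuclei against 517 CPM in other inhibitory nuclei of the injured library, a ratio of 0.220 (0.181 to 0.265). In the naive library it was at 122 against 418 CPM, a ratio of 0.292 (0.240 to 0.351). Sema5a, a semaphorin that guides axons, was at 61.9 against 264 CPM and at 76.0 against 262 CPM. It was counted in 20.4% of injured and 24.3% of naive Npy nuclei, against 62.0% and 60.4% of other inhibitory nuclei. Gucy2d, a receptor-type guanylate cyclase, had ratios of 0.259 and 0.283, Col6a1, a collagen VI chain, 0.277 and 0.140, and Robo3, of the Slit receptor family, 0.272 and 0.273. Fam19a1, which encodes a secreted chemokine-like protein, had 0.245 and 0.289. Cpt1a, Igf2bp2, Ptgfrn and Mill2 rested on 1 to 4 UMIs in the Npy nuclei of each library. Their ratios lay between 0.101 and 0.237.

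These lower values depended on the nuclei set against. The other inhibitory nuclei include those with Pdyn, Gal, Tac2, Cartpt or high Alk, which the rule kept out of the Npy nuclei. Against the Npy-negative candidates, Pde11a had ratios of 0.417 in the injured and 0.635 in the naive library, and Gucy2d 0.433 and 0.565. Sema5a stayed at 0.311 and 0.373, Robo3 at 0.275 and 0.251, and Fam19a1 at 0.187 and 0.216.

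Levels were also followed across 0, 1, and 2 or more Npy UMIs in candidate nuclei. The genes were chosen as the highest in nuclei with an Npy UMI, so a level above that of nuclei with none restates the choice, and what it left free is the order of the nuclei with 1 and with 2 or more. In the injured library Ntn1 was at 6.96, 32.6 and 49.9 CPM in that order, and in the naive library at 5.06, 35.2 and 56.1 CPM. Zfhx4 was at 130, 326 and 456 CPM in the injured and 90.3, 321 and 464 CPM in the naive library. Both genes, with Ecel1, Cpne8, Zfhx3 and Ptpro, were higher at 2 or more UMIs than at 1 in both libraries. The counting intervals of these levels overlapped in both libraries for Ntn1, Ecel1, Cpne8 and Zfhx3, and in the naive library for Ptpro. For Zfhx4 they were apart in both. Cpne8 was nearly level in the naive library, at 75.8 and 76.5 CPM. Mab21l2 did not follow this order, with 12.8, 48.2 and 35.7 CPM in the injured and 11.4, 51.5 and 25.5 CPM in the naive library. Igsf11 did not either, at 36.85 and 32.1 CPM with 1 and with 2 or more in the injured library. In the naive library Igsf11 was at 24.4 and 10.2 CPM. Cdh23, Lhx1, Fgd6, Angpt1 and Cntnap5a were higher at 2 or more than at 1 in both libraries.

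**Figure D3:**
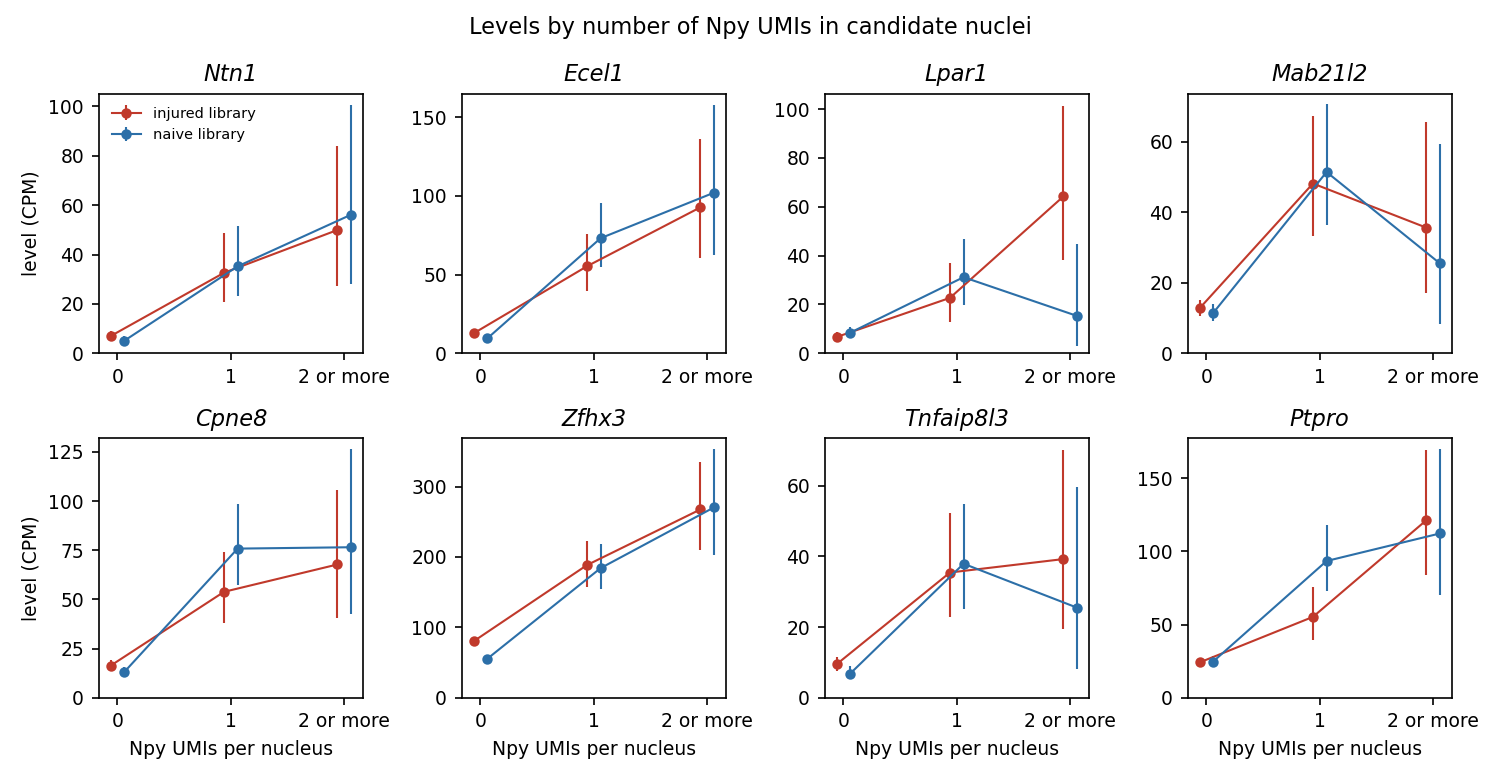
Levels (CPM, vertical axis) of the 8 leading genes are plotted for candidate nuclei with 0, 1, and 2 or more Npy UMIs, in the injured and the naive library, with exact Poisson 95% intervals. The level at 0 reflects the choice of the genes. Mab21l2 in both libraries, and Lpar1 and Tnfaip8l3 in the naive library, are lower at 2 or more UMIs than at 1.

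Genes ranked in one library were read in the other. The 5% minimum was asked of each library, so the library read had a part in the choice. Ntn1, in 3.11% of injured and 2.20% of naive other inhibitory nuclei, met it only through the Npy nuclei. For such genes a higher level in the library read was partly fixed in advance. Of the 50 highest genes of the injured library, 49 were also above 1 in the naive library and 47 at least 1.5-fold, with a median log2 ratio of 1.74, beside 0.03 over all genes read. Of the 50 highest of the naive library, 49 were above 1 in the injured library and 47 at least 1.5-fold, with a median log2 ratio of 1.56, beside 0.02 over all genes. Of all genes read in the naive library, 6.49% were at least 1.5-fold higher and 9.10% at least 1.5-fold lower. For all genes read in the injured library these shares were 6.35% and 10.2%. The lowest 50 carried over less fully, with 44 of 50 below 1 in either direction of reading, and 38 and 37 past 1.5-fold. The highest and the lowest genes can meet the minimum through different nuclei, so no conclusion is drawn from this difference.

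The 50 genes taken from the opposite library, under the same minimum in each library, also showed how uneven the Npy nuclei were. Summed over these genes, 41 of 93 injured Npy nuclei (44.1%, 33.8 to 54.8) and 50 of 115 naive ones (43.5%, 34.3 to 53.0) lay above the level that marks the highest 10% of other inhibitory nuclei. More than 50% of the Npy nuclei therefore did not stand out by these genes. The share was 36.2% in injured and 40.4% in naive nuclei with 1 Npy UMI, and 66.7% and 57.1% in those with 2 or more. Among Npy-negative candidates it was 16.02% in the injured and 14.8% in the naive library, 164 and 161 nuclei, more nuclei than the Npy nuclei above that level.

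The same level was applied to the other classes. Genes could meet the minimum share of nuclei through the Npy nuclei of the library read. The level itself was set on the other inhibitory nuclei, which include these classes and the Npy-negative candidates. The gap between Npy nuclei and any of them was therefore partly fixed in advance, and no conclusion is drawn from its size. Of inhibitory nuclei with Npy outside the rule, 8.06% in the injured and 21.3% in the naive library lay above that level, against 44.1% and 43.5% of Npy nuclei. Inhibitory nuclei with Pdyn were above it in 3.87% and 6.84% of cases, and those with Gal and no Pdyn in 0.664% and 2.23%. Without the nuclei that held UMIs of Xist and of Y-linked genes together, the values were 43.0% of injured and 42.7% of naive Npy nuclei.

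Transcription factors separated the Npy nuclei in both directions. Of 43 measured dorsal horn identity factors, 7 were at least 1.5-fold higher in both libraries and 10 at least 1.5-fold lower (2.52% and 3.81% of all measured genes), with a median log2 ratio of -0.25 in the injured and -0.36 in the naive library, beside 0.02 and 0.03 over all measured genes. Besides Lhx1, Zfhx3 and Zfhx4, the higher ones were Pax2, Zic1, Zic4 and Lmo3. Pax2, a determinant of inhibitory dorsal horn neurons, was at 302.2 CPM in Npy nuclei against 194 CPM in others of the injured library, and at 317 against 190.1 CPM in the naive library. Zic4 had ratios of 2.12 and 2.24, and Zic1 1.69 and 2.18.

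The lower factors included Rorb, Ebf1, Prox1 and Nfix. Rorb, a nuclear receptor of a dorsal horn inhibitory population, was at 147 CPM in Npy nuclei against 587 CPM in others of the injured library, a ratio of 0.25, and at 201 against 499.97 CPM in the naive library, a ratio of 0.40. Ebf1 had ratios of 0.26 and 0.34, Prox1 0.33 and 0.33, Nfix 0.39 and 0.29, and Nfib 0.53 and 0.58. Against the Npy-negative candidates Rorb stood at 0.475 and 0.755 and Prox1 at 0.386 and 0.434.

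Among peptide genes outside the rule, none of 7 measured precursors was 1.5-fold higher in both libraries and 2 were lower. Of all measured genes 2.52% were higher and 3.81% lower. Penk, the enkephalin precursor, was at 52.7 CPM in Npy nuclei against 35.4 CPM in others of the injured library, and at 105 against 60.3 CPM in the naive library, ratios of 1.49 and 1.74. Pnoc, the nociceptin precursor, was at 41.6 against 76.4 CPM and at 53.5 against 106 CPM. Scg2, a granin of dense-core vesicles, had ratios of 0.50 and 0.51. Sst, a peptide gene known mainly from excitatory neurons of the dorsal horn, had 2 UMIs in injured and 7 in naive Npy nuclei. Agrp, a peptide known from the hypothalamus, was at 51.7 CPM in injured and 51.4 CPM in naive Npy nuclei, against 48.4 and 52.8 CPM in other inhibitory nuclei.

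Few UMIs of the NPY receptor genes were counted in the nuclei that carried the ligand. Npy1r had 5 UMIs in injured and 6 in naive Npy nuclei, at 5.07 and 6.42 CPM, against 9.54 and 11.6 CPM in other inhibitory nuclei. Npy5r was at 11.2 and 11.8 CPM against 18.5 and 21.1 CPM. The intervals of the Npy1r ratios, 0.170 to 1.27 in the injured and 0.201 to 1.23 in the naive library, included 1. Npy2r had 2 and 6 UMIs in Npy nuclei, at 2.03 and 6.42 CPM, against 0.543 and 0.393 CPM in the others. The ratios were 3.73 (0.392 to 18.0) in the injured and 16.3 (4.37 to 61.2) in the naive library, for a gene below the 200-UMI minimum.

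Of 19 measured peptide receptors, 1 was higher and 7 were lower in both libraries, beside 2.52% and 3.81% of all measured genes. The higher one was Ntsr1, a neurotensin receptor, with ratios of 2.37 and 4.78 from 12 and 26 UMIs. The 7 lower ones were Npy1r, Npy5r, Oprd1, Sstr1, Tacr3, Crhr1 and Trhr. Tacr3, the neurokinin B receptor, was at 35.5 CPM in injured and 35.3 CPM in naive Npy nuclei, against 82.2 and 89.1 CPM. Rxfp2, a relaxin-family peptide receptor below the 200-UMI minimum and picked after its values were seen, was at 28.4 CPM in Npy nuclei against 3.86 CPM in others of the injured library and at 39.6 against 4.12 CPM in the naive library. Drd3, a dopamine receptor, was picked in the same way and was at 20.3 against 4.11 CPM and at 20.3 against 1.90 CPM.

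Adhesion and synapse-organising genes stood more often on the higher side, with 9 of 56 measured members at least 1.5-fold higher in both libraries and 1 lower (Cntn2), beside 2.52% and 3.81% of all measured genes. The list's median log2 ratio was 0.19 in the injured and 0.11 in the naive library. Cdh9, a classical cadherin, was at 131 CPM in Npy nuclei against 41.6 CPM in the injured library and at 216 against 38.0 CPM in the naive library. Cntnap5c, Cdh13, Cntn5, Nxph2, Tenm1, Il1rapl2 and Ptprt were the other higher members beside Cntnap5a. Axon guidance genes split evenly, with 6 higher (Ntn1, Unc5d, Sema6d, Efnb2, Robo1, Unc5a) and 6 lower (Sema5a, Slit3, Robo3, Ntng2, Epha4, Epha7) of 37. The netrin receptor gene Unc5d, which encodes a partner of the netrin made from Ntn1, was at 685 against 300.9 CPM in the injured and 410 against 226 CPM in the naive library.

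Transmitter receptors and channels gave genes on both sides. The counts below stand beside 2.52% of all measured genes higher and 3.81% lower in both libraries. Of 11 GABA-A receptor genes, Gabrg3 was higher (ratios 1.80 and 1.98) and Gabrg1 lower (0.63 and 0.53), and none of 4 glycine receptor or 4 GABA-B genes was 1.5-fold different in both libraries. Of 17 ionotropic glutamate receptor genes, Grik3 was higher (1.61 and 1.57), and Grik1 (0.30 and 0.41) and Grin2c were lower. Of 46 potassium channel genes, 4 were higher, among them Kcnq5 (2.46 and 2.52) and Kcnn3 (2.27 and 3.84), and 6 lower, among them Kcnip4 (0.51 and 0.53) and Kcnt2 (0.47 and 0.45). In the nitric oxide and cGMP list Pde1a (3.52 and 3.26) and Pde10a (2.10 and 2.20), both phosphodiesterases, were higher, and Nos1, the neuronal nitric oxide synthase, was lower (0.63 and 0.58). None of 11 sodium, HCN and leak channel genes and none of 15 calcium channel genes was 1.5-fold different in both libraries.

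**Figure D4:**
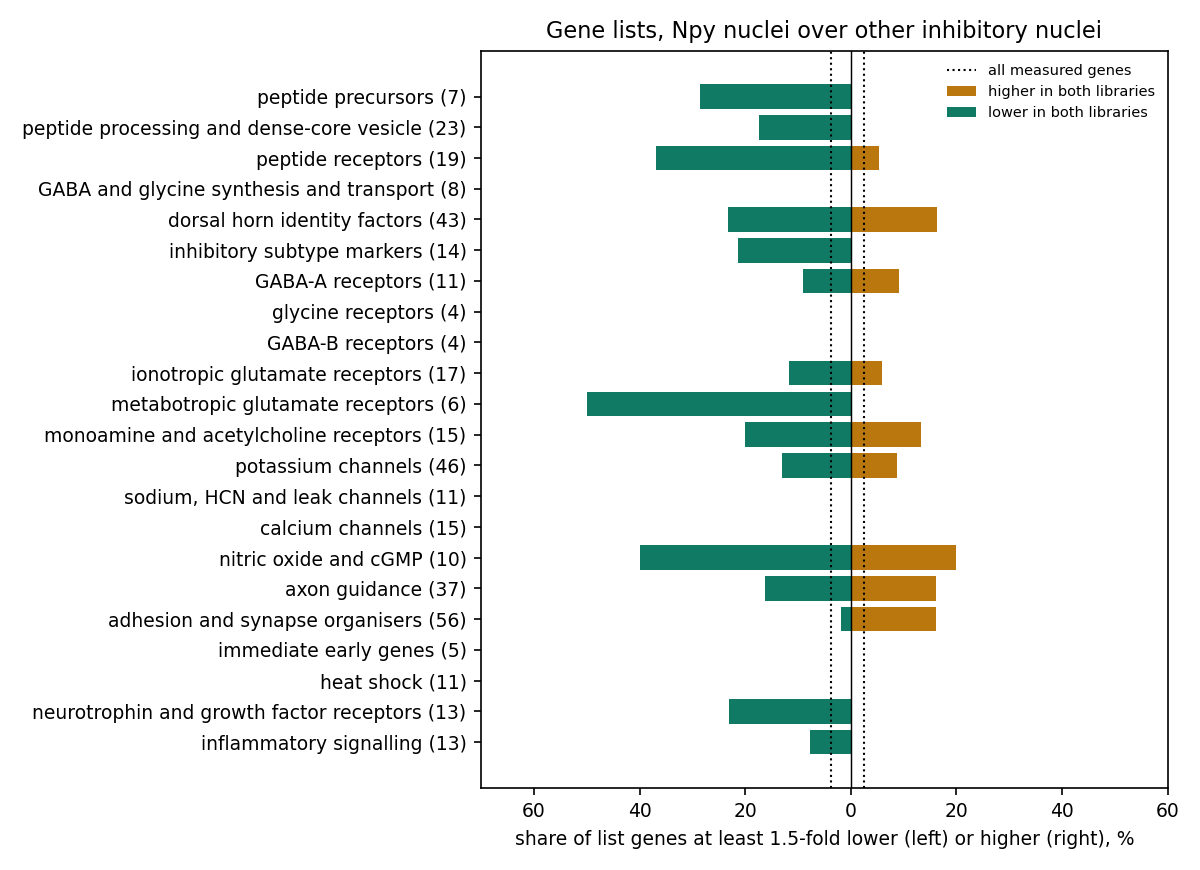
For each gene list, with its number of measured members in brackets, the bars give the share of members at least 1.5-fold higher (right) or lower (left) in Npy nuclei than in other inhibitory nuclei in both libraries. Dotted lines mark the same shares over all measured genes, 2.52% higher and 3.81% lower, and the adhesion list is the one with 9 of 56 members on the higher side and 1 on the lower.

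Injured and naive Npy nuclei were then compared, the question of the design being whether adult cells of the lineage differ after a neonatal incision. The levels of few genes lay far apart. Of 3501 genes with at least 100 UMIs in Npy nuclei and a UMI in at least 5% of them in 1 library, 57 (1.63%) were at least 1.5-fold higher in the injured library and 95 (2.71%) at least 1.5-fold lower. The log2 ratios had a median of -0.02 and an SD of 0.278, against 0.208 if counting error were alone. Over the same genes in the larger class of other inhibitory nuclei, 0.171% were higher and 0.257% lower, a class with many more UMIs and so less counting error.

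Npy itself, which the rule used, was at 133 CPM in injured and 159 CPM in naive Npy nuclei, a ratio of 0.83 (0.65 to 1.06). Penk was at 52.7 CPM in injured and 105 CPM in naive Npy nuclei, a ratio of 0.50 (0.35 to 0.71), and stood at 35.4 against 60.3 CPM in other inhibitory nuclei, a ratio of 0.59 (0.53 to 0.65). Pcsk1n, whose product proSAAS inhibits a prohormone convertase, was at 102 against 211 CPM, a ratio of 0.49 (0.38 to 0.62), and at 0.59 in other inhibitory nuclei. Of 18 measured peptide-processing and dense-core vesicle genes, 14 were below 1 and 3 at least 1.5-fold lower (Pcsk1n, Chgb and Pcsk6), with a median log2 ratio of -0.25, beside -0.02 for these genes in other inhibitory nuclei and -0.02 over all genes in Npy nuclei. Of all measured genes 54.1% were below 1 and 2.71% at least 1.5-fold lower.

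Cdh20, a cadherin, had the highest named ratio. It was at 131 CPM in injured and 50.3 CPM in naive Npy nuclei, a ratio of 2.60 (1.85 to 3.71), and was counted in 35.5% and 20.9% of them. In other inhibitory nuclei it was at 115 against 111 CPM, a ratio of 1.04 (0.97 to 1.11). In Npy nuclei without the deepest 10% of each library the log2 ratio was 0.68, against 1.37 with them. Of 48 measured adhesion and synapse-organising genes in Npy nuclei, 42 were above 1 and 7 at least 1.5-fold higher, with a median log2 ratio of 0.24, beside 0.13 in other inhibitory nuclei. Of all measured genes 45.9% were above 1 and 1.63% at least 1.5-fold higher. Cdh9 was the 1 member at least 1.5-fold lower, at 131 against 216 CPM.

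Receptor genes among the higher ones were Grin3a, an NMDA receptor subunit, at 78.1 CPM in injured and 34.2 CPM in naive Npy nuclei, a ratio of 2.28 (1.49 to 3.56), and Chrna7, a nicotinic acetylcholine receptor subunit, at 73.0 against 32.1 CPM, a ratio of 2.27 (1.47 to 3.61). Their ratios in other inhibitory nuclei were 1.18 and 1.12. The Grin3a log2 ratio was 0.40 in nuclei with Xist alone and 1.55 in those with Y-linked UMIs alone, from 47 and 39 UMIs. For Chrna7 the log2 ratios were 1.32 and 0.71, from 69 and 22 UMIs. Nuclei could not be assigned to single mice, and the gap between these ratios was not tested.

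Zfpm2, a cofactor of GATA transcription factors, was at 106 CPM in injured and 42.8 CPM in naive Npy nuclei, a ratio of 2.49 (1.71 to 3.68), against 1.19 (1.07 to 1.33) in other inhibitory nuclei. Npas3, a basic helix-loop-helix factor, had a ratio of 1.87 (1.45 to 2.44) in Npy nuclei and 1.61 (1.5 to 1.72) in others, and 42 of its 178 injured UMIs came from 1 nucleus. Cblb, a ubiquitin ligase, Ubn1, a histone chaperone component, Ndst4, an enzyme of heparan sulfate synthesis, and Srgap1, a GTPase-activating protein of Slit-Robo signalling, had ratios from 1.80 to 1.92.

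Pkd1l2 belongs to the named higher genes by its summed count but not by its nuclei. It was at 122 CPM in injured and 67.4 CPM in naive Npy nuclei, a ratio of 1.81 (1.32 to 2.49). Of 120 injured UMIs, 118 lay in 1 nucleus, and of 63 naive UMIs, 35 lay in 1 nucleus. Without these, the log2 ratio was -3.58, against 0.85 with them. Pkd1l2 is on the marker list of neurons that contact the cerebrospinal fluid. The highest level of that list was 23253 CPM in an injured and 14109 CPM in a naive Npy nucleus, with a median of 0 in either library.

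Nnat, an imprinted proteolipid gene of neurons, was the lowest. It was at 30.4 CPM in injured and 81.3 CPM in naive Npy nuclei, a ratio of 0.374 (0.237 to 0.578), and at 62.2 against 53.9 CPM in other inhibitory nuclei, a ratio of 1.15 (1.05 to 1.27). The other lower genes were Fth1, the ferritin heavy chain, at 114 against 209 CPM (ratio 0.54), and Itm2c, Atcay, Nsg1, Hint1, Pcnp and Sirpa, with ratios from 0.50 to 0.55. Of the 20 named genes, 17 had the same direction in other inhibitory nuclei, the exceptions being Ubn1, Pkd1l2 and Nnat. Among the 17, the intervals in other inhibitory nuclei included 1 for Cdh20, Ndst4 and Chrna7. The share of all measured genes with the same direction is not given here, so no conclusion is drawn from this count. Without the nuclei that held both Xist and Y-linked UMIs, 62 genes were at least 1.5-fold higher and 106 lower, and the log2 ratio was 1.16 for Cdh20, 0.48 for Ndst4 and -1.43 for Nnat. The annotated span of genes differed between the sides, with a median of 177 kb for the higher genes (55 of 57 matched to the annotation) and 28.1 kb for the lower ones (94 of 95 matched), beside 83.1 kb over all measured genes. The part of gene length and of depth in these ratios was not tested.

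**Figure D5:**
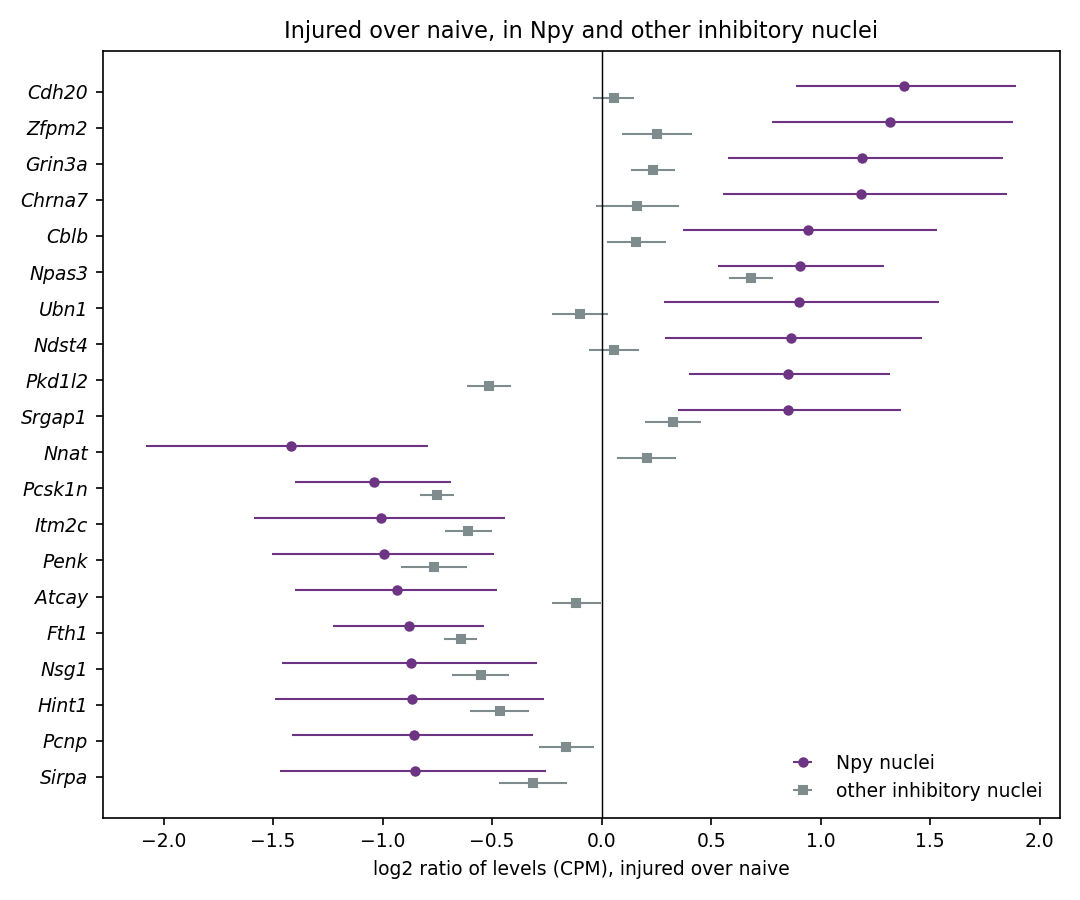
The log2 ratio of the level (CPM) in the injured over the naive library is plotted for the 20 named genes in Npy nuclei and in other inhibitory nuclei, with 95% intervals for counting error. Pcsk1n, Penk and Fth1 lie below 0 in both kinds of nuclei, whereas Nnat lies below 0 in Npy nuclei and above 0 in the others, and Pkd1l2 the other way round.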

How the data were processed

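The deposited matrix held raw UMI counts of 19575 genes in 7610 nuclei, made by the authors with Cell Ranger 3.0.2, Seurat and genome build mm10, per the submitters' processing notes. How reads in introns were treated, the annotation and any filter on nuclei were not given in the sources used here. A second set of files deposited by the authors held natural log values, ln(1 + 10000 × the count's share of its nucleus), and served 1 alternative. Nuclei were assigned to the injured or naive library by the headers of the per-library files.

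Counts were summed over a class and library and scaled to CPM. Ratios carry exact conditional binomial intervals, levels exact Poisson intervals and shares Clopper-Pearson intervals, all at 95%, and log2 ratios add 0.5 UMIs to each count. A count of 0 was read as at most 3 counts. No test between groups was made, since each group had 1 pooled library and nuclei are not replicates. Doublets were not removed. The code was checked on simulated counts. Genes of the rule were kept out of all rankings.

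The named genes were the 15 highest and 10 lowest between Npy and other inhibitory nuclei, ranked by the library nearer to a log2 ratio of 0, and the 10 highest and 10 lowest between the injured and naive libraries with the same direction in Xist-only and Y-only nuclei. Up to 3 members at each end of a gene list could be named as well. The rankings skipped predicted, mitochondrial, ribosomal and Y-linked genes and those of X inactivation. The gene lists and the members were chosen with earlier results of these data known. Some list members described, those past 1.5-fold in both libraries, were picked by that limit after their values were seen. Gene positions came from GENCODE annotation of mm10, in which all 53 genes looked up matched once by symbol.

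The alternatives were thinning to 3000 UMIs, other limits on Npy (2 or more) and on inhibitory UMIs, other weights and scalings, splits by sex-linked UMIs, no minimum count, and removal of the deepest 10% of nuclei. Some were chosen after seeing the data: 3 for the Npy contrast (no minimum count, median scaling, and removal of nuclei with both sex markers), removal of those nuclei for the share, and removal of the nucleus with most UMIs of a gene. Python 3.11.15, numpy 2.4.6, scipy 1.17.1, pandas 2.3.3 and matplotlib 3.10.9 were used. Some results of the lists and of glial nuclei are not reported here.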

Additional observations from a re-analysis of the deposited data

Results flagged for a closer look

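Some genes had opposite directions in the groups compared, with intervals for counting error on opposite sides of 1. The differences between these ratios were not tested. Nnat had an injured over naive ratio of 0.374 (0.237 to 0.578) in Npy nuclei and 1.15 (1.05 to 1.27) in other inhibitory nuclei. Set the other way, Nnat in Npy nuclei over other inhibitory nuclei had a ratio of 0.489 (0.328 to 0.703) in the injured and 1.51 (1.18 to 1.91) in the naive library.

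Pkd1l2 had an injured over naive ratio of 1.81 (1.32 to 2.49) in Npy nuclei and 0.700 (0.653 to 0.750) in other inhibitory nuclei. Npy over other inhibitory nuclei, its ratio was 1.39 (1.14 to 1.67) in the injured and 0.538 (0.412 to 0.692) in the naive library, with 118 of the 120 injured UMIs in 1 Npy nucleus.

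Rorb, a nuclear receptor gene, had an injured over naive ratio of 0.731 (0.585 to 0.913) in Npy nuclei and 1.17 (1.14 to 1.21) in other inhibitory nuclei. Cacnb4, a calcium channel subunit, had 0.743 (0.619 to 0.890) and 1.05 (1.002 to 1.105).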

How the results depend on the processing

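No paired analysis was possible because each group had 1 pooled library, and for the same reason no library could be left out. The 15 higher and 10 lower genes of Npy nuclei kept their direction in both libraries under every alternative run. They were chosen as extremes with the same sign in both libraries, and the alternatives reused these nuclei or some of them, so this is a weak check. Against the Npy-negative candidates, 15 of their log2 ratios left the main counting interval and 35 stayed within it. With Npy of 2 or more, over the named genes of both contrasts, 35 left it, 34 stayed and 1 reversed. The 20 genes named between injured and naive Npy nuclei were chosen with the same direction in Xist-only and Y-only nuclei, so those splits are no check of it. Under the other alternatives run, 19 kept their direction. The exception was Pkd1l2, with a log2 ratio of -2.10 in nuclei with 2 or more Npy UMIs and -3.58 without the nucleus holding most of its UMIs in each library.

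Counts of genes past 1.5-fold moved with the number of UMIs. Between Npy and other inhibitory nuclei (272 higher and 412 lower, with 33 and 52 list genes), thinning gave 686 lower, Npy of 2 or more gave 466 higher and 1070 lower with 81 list genes lower, and no minimum count gave 900 and 2628 with 99 list genes lower. Between injured and naive Npy nuclei (57 higher and 95 lower, with 13 and 7 list genes), Xist-only nuclei gave 100 and 180 with 16 list genes lower, Y-only nuclei 406 and 467 with 32 and 21, thinning 193 and 335 with 14 lower, Npy of 2 or more 383 and 443 with 40 and 31, and no minimum count 2974 and 3961 with 73 and 109. These settings hold fewer UMIs per gene, and the cause was not tested.

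The share of Npy nuclei was 3.25% in the injured and 3.65% in the naive library after thinning, 1.25% and 0.974% with Npy of 2 or more, and 3.70% and 3.53% in Y-only nuclei.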
